A study of Mus musculus with 4 samples.

Results

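The AP-1 factors are the Fos and Jun families of transcription factors together with the stress-induced relative Atf3 and the small Maf protein Maff. The members were fixed by name as Fos, Fosb, Fosl1, Fosl2, Jun, Junb, Jund, Atf3 and Maff, and every probe set whose only platform gene symbol is one of these was used. They are 9 of 18193 genes named on the array, read by 13 probe sets, and all 13 passed the filter on low signals described below. The RNA came from YFP-positive muscle satellite cells sorted straight from the muscle of mice aged 10 weeks, 2 weeks after tamoxifen. The knockout group (cKO) was Pax7Cre/+ with both Calcr alleles floxed (Calcr flox/flox) and with Rosa-YFP/YFP, and the control group was Pax7Cre/+ with Calcr +/+ and Rosa-YFP/YFP. Both groups thus carried the tamoxifen-dependent Cre at the Pax7 locus and the YFP reporter, and both received tamoxifen, so the genotypes differed in the floxed Calcr alleles. Each group had 2 samples that the titles call biological replicates, on 1 array each, and this number limits the precision. The comparison asks which transcripts differ in satellite cells that have lost the calcitonin receptor, a G protein-coupled receptor.

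AP-1 proteins bind DNA as dimers through a basic region and a leucine zipper. Fos proteins need a Jun partner, while Jun proteins can also pair with each other. Most of these genes are immediate early genes: stress kinases, growth factors, calcium and cAMP switch them on within minutes without new protein synthesis. Satellite cells rest in intact muscle, and taking muscle apart with enzymes is known to induce Fos, Jun and Atf3 before the cells are lysed. High levels in sorted cells are therefore commonly read as a trace of the isolation.

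The targeted gene was lower in the cKO samples, at signals of 568 and 684 in cKO against 1268 and 1424 in control (log2 difference -1.11). All 16 satellite cell markers passed the filter, among them the adhesion genes Sdc4 (4802 and 4707 in cKO, 4813 and 5803 in control) and Vcam1 (4270 and 4239 in cKO, 4006 and 4861 in control). By mean, 14 of the 16 were lower in cKO and 2 higher (median log2 difference -0.21), 0 passed the test described below, and 5 were lower without overlap of the arrays, against 12.1% of all kept genes. The 2 with an unadjusted limma p under 0.05 (0.724% of all kept probe sets) were Calcr itself and the BMP antagonist gene Chrdl2 (-2.78). Calcr, the targeted gene, thus counts among the 14 lower markers, the 5 without overlap and in the median. The median was 0.04 between the replicates numbered 1 and -0.51 between those numbered 2, against 0.09 and -0.19 over all kept genes. Markers of other cell types were present too, and the endothelial and pericyte lists had higher summed signals on replicate 1 in both genotypes. The summed signal of 15 endothelial genes was 9785 and 1530 in cKO and 10699 and 1337 in control for replicates 1 and 2. That of 12 pericyte and smooth muscle genes was 21800 and 10599 in cKO and 19176 and 13880 in control. The pericyte list shares Des and Notch3 with the satellite cell list. The leukocyte markers did not go with the number in this way: the sum of 9 genes was 2572 and 664 in cKO and 2426 and 3756 in control. Only 9 of 22 leukocyte markers passed the filter, 8 of them with a lower mean in cKO. The median log2 difference of these 9 was 0.30 between the replicates numbered 1 and -3.16 between those numbered 2. In bulk samples, fewer cells of a type and less RNA per cell cannot be told apart.

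The sequences below show cAMP response elements (CRE) close to start sites of Fos, Atf3 and Maff, and related letters, without the CRE core, close to that of Jun. They are shown since cAMP is a main messenger of the calcitonin receptor, and CREB, the factor it activates, binds CRE. The sequences come from RefSeq, build GRCm38.p6, and read 5′ to 3′ on the gene's strand. Capitals mark the CRE core TGACGT, the related letters TGACATCA known from Jun, the full CRE TGACGTCA, which holds the core, and the TATA box letters TATAAA. The first is the 100 bases before the Fos start site at chr12:85473790-85473889 (+ strand), with a CRE core 66 to 61 bases upstream. The second is the 100 bases before the Jun start site at chr4:95052223-95052322 (- strand). The third is the 100 bases before the Atf3 start site at chr1:191183334-191183433 (- strand), where the core is read on the opposite strand. The last is 30 bases, from 40 to 11 bases upstream of 1 of 3 listed Maff start sites, at chr15:79347480-79347509 (+ strand).
Fos: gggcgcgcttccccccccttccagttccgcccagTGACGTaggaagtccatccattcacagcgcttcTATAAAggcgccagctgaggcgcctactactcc
Jun: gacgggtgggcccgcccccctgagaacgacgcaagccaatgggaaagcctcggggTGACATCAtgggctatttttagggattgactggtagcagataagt
Atf3: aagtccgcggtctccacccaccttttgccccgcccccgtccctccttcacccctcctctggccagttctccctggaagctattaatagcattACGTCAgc
Maff: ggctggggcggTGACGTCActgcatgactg

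Over the 250 bases before each start site, searched on both strands, the core TGACGT was in the windows of 3 of 8 members with an entry (Fos, Atf3 and Maff) and in 6.47% of all 32851 windows. The full CRE was ahead of 1 member, Maff, and in 1.55% of all windows. The Jun-type letters TGACATCA were ahead of Jun and of another Maff start site, and in 2.93% of all windows. The AP-1 site TGANTCA was ahead of 0 of the 8 members, against 6.75% of windows, and the CArG box, bound by serum response factor, ahead of 0, against 1.47%. TATAAA was ahead of Fos, and in 12.4% of windows. These matches describe the letters in this window and no binding, and elements farther upstream were not searched.

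AP-1 transcripts were among the brightest on every array. Values are linear MAS5 signals, and the percentile is the share of the 45037 probe sets other than array controls that read lower on the same array. A signal depends on the probes as well as on the transcript, so a percentile describes how bright a probe set was and does not order genes by abundance. Of the 13 AP-1 probe sets, 10 lay at or above the 95th percentile on all 4 arrays and 5 at or above the 99th. Over the brightest probe set of each of the 9 genes, the median percentile was 99.3 and 99.5 in cKO and 99.2 and 99.3 in control. The plot of ranks within each array shows that the exceptions were Junb, the dimmer probe set of Fosl1 and the dimmer probe set of Jund.

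**Figure D1:**
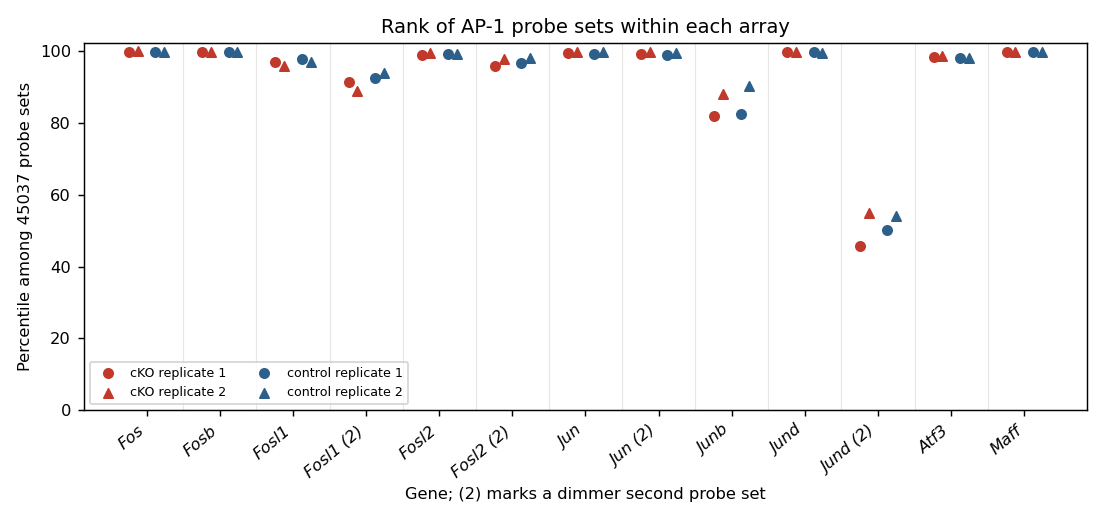
Percentile of each AP-1 probe set (vertical axis, among 45037 probe sets of the same array) for the 9 genes, with a dimmer second probe set marked (2). Red symbols are cKO and blue control, circles replicate 1 and triangles replicate 2; 10 of 13 probe sets stay at or above the 95th percentile on every array.

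Fos, the founding member and the classical marker of recent stimulation, lay at percentiles 99.6 and 99.8 in cKO and 99.6 and 99.6 in control. From the top, its position was 173 and 98 in cKO and 160 and 197 in control. Maff, which has no activation domain of its own and pairs with larger bZIP proteins, stood at positions 164 and 172 in cKO and 175 and 157 in control. Fosb, a close relative of Fos, stood at 199 and 216 in cKO and 169 and 223 in control. These 3 probe sets thus kept within the brightest 223 of the array in both genotypes. Atf3, a stress-induced repressor and partner of Jun, was at percentiles 98.3 and 98.6 in cKO and 98.0 and 97.9 in control.

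The other genes of the dissociation response were bright too. A list of 42 measured dissociation and early response genes outside AP-1 (97 probe sets) had median percentiles of 97.8 and 98.6 in cKO and 97.7 and 98.3 in control. Of its 42 genes, 38 in both cKO samples, and 38 and 39 in the control samples, had a probe set in the top 5%. The other AP-1 and Maf bZIP genes, 16 on the array with 34 probe sets, had median percentiles of 69.98 and 74.5 in cKO and 73.0 and 68.7 in control. These include Batf, Jdp2, Atf2, Maf, Mafk and the small Maf partners Nfe2l2 and Bach1. Of the 9 AP-1 members, 8 had a probe set in the top 5% on every array, against 2 or 3 of the 16 relatives.

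Between genotypes no AP-1 probe set passed the test. Over all 22519 probe sets kept, those with a mean log2(signal + 1) at or above the median of all (a signal of 63.9), limma's moderated test with Benjamini-Hochberg adjustment called 0 at 0.05, which is 0%. At an unadjusted limma p under 0.05 it gave 163, or 0.724% (0.218% higher and 0.506% lower), and 0 of the 13 AP-1 probe sets. The adjusted limma p of all 13 was 0.99999. By brightest probe set, 4 of 9 members had a higher mean in cKO and 5 a lower one. Their median log2 difference, cKO minus control, was -0.02, against -0.04 over all 10140 kept genes. The AP-1 median turned to 0.12 when cKO replicate 1 was left out and to 0.03 when control replicate 2 was, so its direction is not settled.

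**Figure D2:**
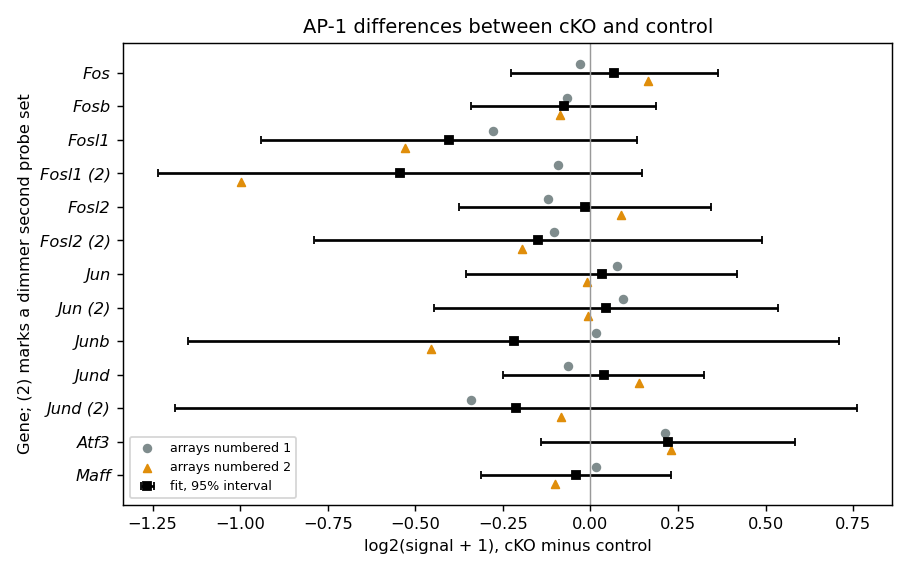
Log2 difference (horizontal axis, cKO minus control on the log2(signal + 1) scale) of each AP-1 probe set. Black squares with bars are the limma estimate and its 95% interval, grey circles the difference between the arrays numbered 1 and orange triangles that between the arrays numbered 2; every interval includes 0.

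The 95% intervals bound what the arrays could have missed. For 8 of the 9 members the interval of the brightest probe set stayed within 2-fold in either direction, and for 6 within 0.5 on the log2 scale. The widest of these 9 was that of Junb, a Jun relative that is a weaker activator in many settings. That interval ran from 0.451 to 1.64 as a ratio of cKO to control. The narrowest was that of Fosb, between 0.790 and 1.14. Some dimmer probe sets were bounded less well. Their intervals ran from 0.425 to 1.11 for Fosl1 and from 0.440 to 1.70 for Jund, so a change beyond 2-fold lay within both. These intervals are those of single probe sets, with a variance that limma draws in part from other probe sets of like brightness. An exact permutation test of 2 against 2 samples, 2-sided, cannot go below p = 0.333, and for Fos the exact permutation p was 1.

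Among the Fos family, Fos read 5528 and 6517 in cKO and 5639 and 5812 in control. The highest and the lowest value were both cKO samples, so the groups overlapped. Its mean was 6022 ± 700 in cKO and 5725 ± 123 in control (SD, n = 2 each), a log2 difference of 0.07 with an SE of 0.13. Without cKO replicate 2, the brightest array for Fos, it was -0.05.

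Fosb read 5335 and 5283 in cKO and 5587 and 5609 in control. Both cKO samples lay below both control samples, by a small margin, and the replicates of each group lay close together. On the log2 scale cKO minus control was -0.08 (SE 0.11), and it turned to 0.02 with each array centred on its median. Fosb and its splice form are best known from neurons, where they build up under repeated stimulation.

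Fosl1 and Fosl2 encode Fra-1 and Fra-2, which lack the strong activation domain of Fos and are themselves AP-1 targets. The brighter Fosl1 probe set read 2026 and 1441 in cKO and 2456 and 2083 in control. The dimmer one read 904 and 621 in cKO and 963 and 1239 in control. On both, both cKO samples lay below both control samples, and cKO replicate 2 was the lowest. The log2 differences were -0.40 (SE 0.23) and -0.54 (SE 0.29), both with an adjusted limma p of 0.99999.

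The Fosl1 difference leaned on single arrays. Without cKO replicate 2 the brighter probe set was at -0.16, and without cKO replicate 1 at -0.65 with an adjusted limma p of 0.99996. On the dimmer probe set cKO and control differed by -0.09 between the replicates numbered 1 and by -0.996 between those numbered 2. The leukocyte markers were also lowest on cKO replicate 2 (a summed signal of 664) and highest on control replicate 2 (3756), and their part in the Fosl1 values was not tested.

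Fosl2 read 3736 and 4625 in cKO and 4062 and 4352 in control on its brighter probe set. Its dimmer probe set read 1683 and 2414 in cKO and 1809 and 2766 in control. Both overlapped between the genotypes, with log2 differences of -0.02 (SE 0.15) and -0.15 (SE 0.27). On both probe sets, as deposited, the samples lay together by replicate number and not by genotype. On the brighter one replicate 2 was 1.24-fold brighter than replicate 1 in cKO and 1.07-fold in control. On the dimmer one it was 1.43-fold brighter in cKO and 1.53-fold in control.

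**Figure D3:**
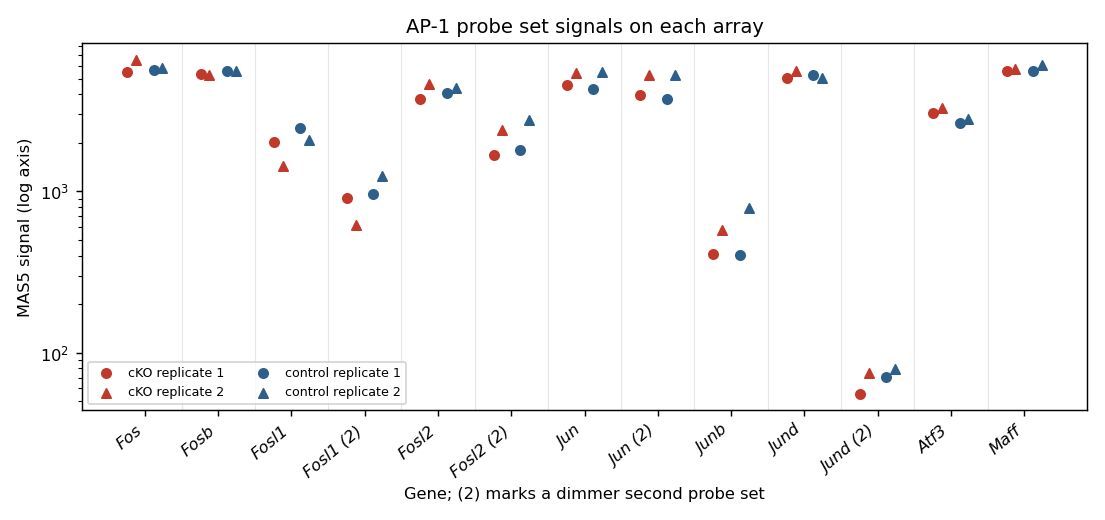
MAS5 signal (vertical log axis) of the 13 AP-1 probe sets on each array. Red symbols are cKO and blue control, circles replicate 1 and triangles replicate 2. Jun, Junb and both Fosl2 probe sets are higher on both replicates numbered 2, while Fosl1 is lower in both cKO samples.

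Among the Jun family, Jun, the partner that most Fos dimers need, read 4536 and 5453 in cKO and 4304 and 5495 in control on its brighter probe set. The other probe set read 3963 and 5250 in cKO and 3714 and 5273 in control. Both replicates numbered 2 were above both numbered 1 on either probe set, and the genotypes overlapped fully. The log2 differences between cKO and control were 0.03 (SE 0.17) and 0.04 (SE 0.21).

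Junb read 408 and 573 in cKO and 404 and 786 in control on its only probe set. The replicates numbered 1 were nearly equal, and control replicate 2 was highest. The genotypes differed by -0.22 on the log2 scale (SE 0.40), but leaving out control replicate 2 gave 0.26 and leaving out cKO replicate 1 gave 0.02. Replicate 2 was 1.40-fold brighter than replicate 1 in cKO and 1.95-fold in control, and no other brightest AP-1 probe set had as wide a gap between the control replicates.

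Jund, which is kept on in resting cells more than the other Jun genes, read 5030 and 5596 in cKO and 5256 and 5080 in control. Its groups overlapped, with a log2 difference of 0.04 (SE 0.12). A second Jund probe set, designed on an expressed sequence tag, read only 55.6 and 74.6 in cKO and 70.6 and 79.1 in control, around the filter signal of 63.9. Its log2 difference was -0.21 (SE 0.42). It was the AP-1 probe set nearest to the filter, and the sources used here do not give its place in the transcript.

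Beyond Fos and Jun, Atf3 read 3066 and 3294 in cKO and 2647 and 2811 in control. Both cKO samples lay above both control samples. The mean was 3180 ± 161 in cKO and 2729 ± 116 in control (SD, n = 2 each), a 1.17-fold difference. On the log2 scale this was 0.22 (SE 0.15), with an adjusted limma p of 0.99999. It was 0.21 between the replicates numbered 1 and 0.23 between those numbered 2. It stayed positive in all 12 alternatives run, from 0.17 to 0.31, but most of these could not have turned it. Other filters, no trend and a block leave the estimate as it is. Without overlap, leaving out 1 array cannot change its sign. Maff read 5613 and 5701 in cKO and 5549 and 6113 in control, with overlap and a log2 difference of -0.04 (SE 0.12).

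In all, 1 of 13 AP-1 probe sets (Atf3) lay higher in each cKO sample than in either control sample, against 7.87% of all kept probe sets. Another 3 (Fosb and both of Fosl1) lay lower in each cKO sample than in either control sample, against 13.5% of all. After quantile normalization, and with arrays centred on their median, the lower ones were the 2 of Fosl1 and the higher one was Atf3. None reached a 2-fold difference, which 0.12% of kept probe sets did on the higher side and 0.426% on the lower side without overlap.

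Several AP-1 signals went with the replicate number. By brightest probe set the median absolute log2 difference was 0.07 between cKO and control, 0.24 between the replicates of cKO and 0.10 between those of control. A genotype difference is one of means of 2 samples and a replicate difference one of single samples, which vary more by construction. A total of 9 of the 13 probe sets were higher on replicate 2 in both genotypes, against 23.4% of all kept probe sets. That count was 5 after quantile normalization, against 32.1%, and 11 with arrays centred on their median, against 41.2%. The probe sets that were higher on replicate 2 in both genotypes under all of these scalings were both of Jun, that of Junb, the dimmer one of Fosl2 and the dimmer one of Jund.

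The summed signal of the 9 members was 35277 and 38484 in cKO and 35904 and 38141 in control, a narrow range beside that of the endothelial markers given above, which were far brighter on both replicates numbered 1. Of the 15 kept endothelial markers, 14 in cKO and 15 in control were at least 2-fold brighter on replicate 1. No AP-1 member was in either genotype, and of the dissociation list 2 genes were in cKO and 0 in control. The matching share of all kept genes was not computed, so these counts do not show whether AP-1 stood out. The part of the endothelial signal in the values of Jun, Junb and Fosl2 was not tested.

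**Figure D4:**
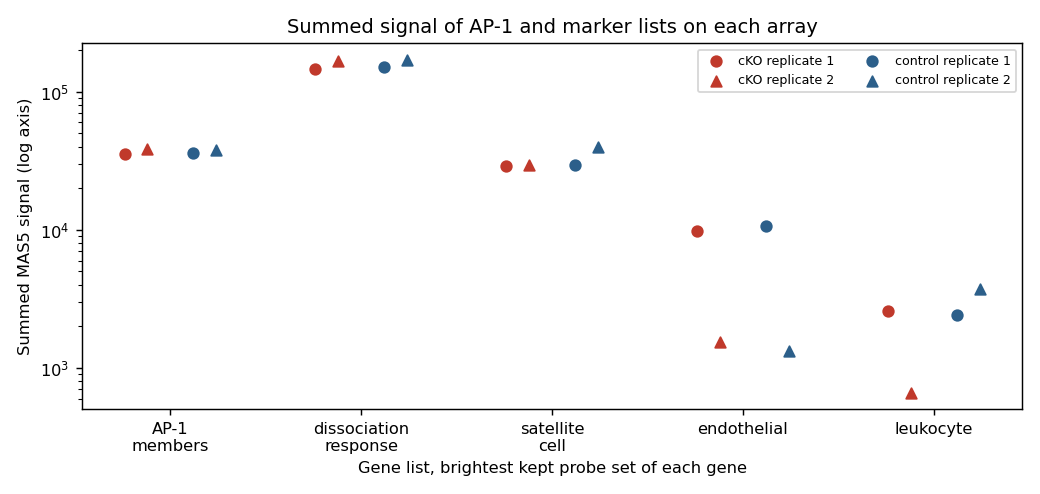
Summed MAS5 signal (vertical log axis, brightest kept probe set of each gene) of the 9 AP-1 members, the dissociation response list and 3 marker lists on each array. Red symbols are cKO and blue control, circles replicate 1 and triangles replicate 2; the AP-1 sums keep between 35277 and 38484, while the endothelial sums run from 1337 to 10699.

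The patterns of 3 members over the 4 arrays were set against those of 10131 other kept genes, by the Euclidean distance between log2 values centred on each gene's own mean. Nearest to Fos were Phf2, a histone demethylase gene, Lrrc40 and Rbm7, at distances of 0.0041, 0.024 and 0.028. Nearest to Jun were the telomere protein gene Terf2, Ccndbp1 and Pdcl, at 0.026, 0.030 and 0.036. Nearest to Atf3 were Cdk7, a kinase gene of the transcription machinery, S100a4 and Poll, at 0.032, 0.033 and 0.035. Within a distance of 0.1 lay 72 genes for Fos, 73 for Jun and 50 for Atf3. With 4 arrays such nearness is common.

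The genes that control AP-1, or carry its name, did not pass the test either. Of 11 kept relatives in the bZIP family, 3 had a higher and 8 a lower mean in cKO (median log2 difference -0.14), and 0 had an adjusted limma p under 0.05. Nfe2l2, the NRF2 gene and a partner of small Maf proteins, read 2192 and 2438 in cKO and 2382 and 2803 in control. Bach2 read 184 and 538 in cKO and 488 and 377 in control, and Nfe2l3 229 and 255 in cKO and 276 and 142 in control. Atf7, a relative of Atf2, read 419 and 502 in cKO and 516 and 509 in control, the 1 member of the list below control without overlap, against 12.1% of all kept genes. Atf2, a partner of Jun, read 1282 and 1218 in cKO and 1152 and 1210 in control, the 1 member above it without overlap, against 8.53%.

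Upstream lie the MAP kinase cascades that phosphorylate Jun and the serum response factor complex that switches on Fos. Of 21 kept genes, 6 had a higher and 15 a lower mean in cKO (median -0.07), 0 passed, and 2 were lower without overlap, which is no more than the 12.1% of all kept genes that were. These were Map2k3, a kinase that activates p38, at 1451 and 946 in cKO and 1503 and 1532 in control, and the JNK scaffold gene Mapk8ip1, at 117 and 85.3 in cKO and 125 and 170 in control. The ERK kinase gene Map2k1 read 834 and 430 in cKO and 735 and 883 in control. Srf, the serum response factor gene, read 1627 and 1141 in cKO and 1350 and 1983 in control. The list's median was 0.10 between the replicates numbered 1 and -0.40 between those numbered 2, and 0.02 with arrays centred on their median. Over all kept genes these medians were 0.09, -0.19 and 0.05.

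Genes that end AP-1 activity, such as MAP kinase phosphatases, ubiquitin ligases that act on Jun, and the mRNA decay protein gene Zfp36, had 8 members with a higher and 6 with a lower mean in cKO (median 0.01, 0 of 14 passed). Dusp8, a phosphatase gene for JNK and p38, read 671 and 770 in cKO and 813 and 1147 in control, the 1 gene of the list without overlap, against 12.1% of all kept genes lower in that way. Dusp4, a phosphatase gene for ERK, read 354 and 536 in cKO and 361 and 293 in control. Zfp36 read 5603 and 6868 in cKO and 6375 and 7331 in control, and Zfp36l1 5077 and 5587 in cKO and 5299 and 6198 in control.

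Genes that AP-1 is known to activate in one tissue or another had lower means in cKO more often than higher ones. In 16 of 19 kept genes the cKO mean was the lower one and in 3 the higher one. After quantile normalization, and also with arrays centred on their median, 13 were lower and 6 higher. The matching shares of all kept genes were not computed. The median over the list was -0.30 on the log2 scale against -0.04 over all kept genes, and 0 had an adjusted limma p under 0.05. The chemokine gene Ccl2 read 559 and 508 in cKO and 1108 and 1185 in control (log2 difference -1.10, SE 0.25). Hmox1, the heme oxygenase gene, read 2772 and 1854 in cKO and 3156 and 3555 in control (log2 difference -0.56, SE 0.22). These were the 2 of 19 that lay below control without overlap, no larger a share than the 12.1% of all kept genes. They were also the 2 with an unadjusted limma p under 0.05 (0.724% of all kept probe sets). The cytokine gene Lif read 142 and 338 in cKO and 308 and 739 in control, and the growth factor gene Hbegf 881 and 549 in cKO and 1145 and 772 in control, both with overlap. Lmna was the 1 member above control without overlap, by 0.07, against 8.53% of all kept genes.

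The shift of the target list depended on single arrays. Its median was -0.09 between the replicates numbered 1 and -0.49 between those numbered 2, against 0.09 and -0.19 over all kept genes. It was 0.02 without cKO replicate 2, against 0.03 over all kept genes. Without cKO replicate 1 it was -0.62, against -0.11 over all kept genes, and without control replicate 1 it was -0.14, against -0.13. With quantile normalization it was -0.25 and with centred arrays -0.21. Some of these targets, such as Ccl2 and Hmox1, are also expressed by macrophages, and the leukocyte markers were lowest on cKO replicate 2. On the replicates numbered 1 the leukocyte sums were close, at 2572 in cKO and 2426 in control. Ccl2 read 559 in cKO and 1108 in control on those arrays. The part of the leukocyte markers in the list's median was not tested.

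The wider dissociation response had 17 members with a higher and 25 with a lower mean in cKO (median -0.07, 0 of 42 passed), and 24 higher and 18 lower with arrays centred on their median. It shares Dusp1 and Zfp36 with the list of genes that end AP-1 activity. Without overlap, 4 were higher, against 8.53% of all kept genes, and 9 lower, against 12.1%. The orphan receptor gene Nr4a2, a cAMP target, read 2926 and 3454 in cKO and 2726 and 1508 in control (log2 difference 0.65, SE 0.28), and Gadd45b, a stress gene, 2464 and 2454 in cKO and 2136 and 1378 in control (0.52, SE 0.24). Klf4 read 5468 and 4600 in cKO and 4086 and 4192 in control, and Csrnp1, a nuclear early response gene, 1770 and 1703 in cKO and 2062 and 2531 in control. As with AP-1, the list's sum was 146525 and 167118 in cKO and 151810 and 169655 in control, so it was brighter on both replicates numbered 2. Leaving out 1 array at a time, the median ran from -0.20 to 0.0036 for the bZIP relatives and from -0.26 to 0.048 for the upstream list. It ran from -0.075 to 0.042 for the genes that end AP-1 activity and from -0.17 to 0.019 for the dissociation list, so, with the target list, all 5 medians changed sign under at least 1 such omission.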

How the data were processed

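The authors deposited a linear signal intensity for each probe set, made with MAS5 per the submitters' processing notes. MAS5 merges the probes of a set into 1 intensity and can scale whole arrays. The sources used here name no scaling target, and median signals ran from 57.9 to 70.4, so the overall level was tried under 2 other scalings. Detection calls were not used here. The platform annotation gave 34945 of 45101 probe sets a single gene symbol, and 34754 were found in the RefSeq table, where 0 changed.

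Values were analysed as log2(signal + 1), so fold changes of low signals are understated. After 64 control probe sets were removed, 22519 at or above the median log2 signal passed the filter. All were fitted with limma 3.58.1 under R 4.3.3 (lmFit and trended eBayes; 2 residual and 5.32 prior degrees of freedom), with Benjamini-Hochberg adjustment, after tests on simulated data. Limma p-values and 95% intervals are 2-sided. Of several probe sets of a gene, the brightest stands for it. Named genes were all members, Calcr, up to 4 genes per list with the smallest limma p, the 2 brightest of each marker list (given here for satellite cells only), and the 3 genes nearest to Fos, Jun and Atf3; Lmna, Atf2 and Chrdl2 were named after their values were seen. Alternatives were other scalings, pseudocount and filters, no trend, a block, other probe set rules and leaving out each array. Members and lists were chosen with earlier results of these data known. The fibro-adipogenic, muscle fibre and Schwann cell lists had 9, 13 and 5 kept genes and 0 with an adjusted p under 0.05, with median log2 differences of -0.01, -0.04 and -0.06. The median of 15 endothelial genes was -0.02, of 12 pericyte genes 0.02, of 16 satellite cell genes -0.21 and of 9 leukocyte genes -1.43. For the leukocyte genes it was 0.30 between the replicates numbered 1 and -3.16 between those numbered 2.

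Nothing in the labels says that equal replicate numbers mark a shared mouse, litter or day, so the fit has no block. The sources used here do not say how many mice went into a sample, and the titles call the samples biological replicates. Limma p-values and intervals rest on the spread between these samples only. For each probe set that spread is moderated towards that of other probe sets of like brightness.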

Additional observations from a re-analysis of the deposited data

How the results depend on the processing

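No AP-1 probe set passed an adjusted limma p of 0.05 under any of the 11 refits (smallest 0.99981). Over all probe sets the count of 0 called became 163 at an unadjusted p under 0.05, 5 with the replicate number as a block (replicate block; 0 of them AP-1), and 0 to 5 when 1 array was left out. Of the AP-1 probe sets, 1 to 5 were higher and 3 to 9 lower without overlap when 1 array was left out. A group left with 1 array is separated from the other more easily than a group of 2. The matching shares of all kept probe sets were not computed, so these counts do not show whether AP-1 stood out. The AP-1 median log2 difference of -0.02 ran from -0.079 to 0.12 when 1 array was left out, and the highest came without cKO replicate 1. The median percentile of 99.3 was 98.6 among genes and 98.6 among kept probe sets, since those populations are brighter. With only the replicates numbered 1 or numbered 2, an alternative added after the data were seen, the AP-1 median was -0.03 and -0.01. Over all kept genes these medians were 0.09 and -0.19. The member differences turned in 14 of 108 cases, which include settings of filter, trend and block that cannot change an estimate. Quantile normalization gave 0.037 for Fosl2. Centring gave 0.016 for Fosb, 0.076 for Fosl2 and 0.050 for Maff. The mean over probe sets gave -0.087 for Jund. Leaving out 1 array, the difference ran from -0.051 to 0.19 for Fos, -0.17 to 0.14 for Fosl2, -0.14 to 0.21 for Jun, -0.70 to 0.26 for Junb, -0.039 to 0.12 for Jund and -0.11 to 0.028 for Maff. The cause was not tested. A group left with 1 array was taken to vary as much as the other. The Fosl1 and Atf3 differences kept their direction in the 12 alternatives run for each, most of which could not have turned them, since their arrays did not overlap. With 2 arrays a group, the intervals of Junb and of the dimmer Fosl1 and Jund probe sets reach beyond 2-fold. For dim probe sets such as the second of Jund the signal lies around the filter.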
